A study of Mus musculus with 33 samples.

Results

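The response of wild-type mouse embryonic fibroblasts (MEF) to interferon beta (IFNb) was read from 2 single-colour Illumina bead arrays. One held RNA of cells given IFNb for 8 h and the other RNA of cells of the same array series at 0 h, and both were chosen by the agent and time in their titles out of 33 arrays in the series, 10 of them of MEF. Both samples were primary C57BL/6 fibroblasts of the wild-type genotype, kept to passages 5 to 6, with no genetic change or earlier treatment in common that the labels name. The dose of IFNb, the number of embryos behind a culture and the handling of the 0 h cells are not given in the sources used here. With 1 array a side there is no spread between replicates, so no test was made and every difference below compares these 2 arrays. The other arrays set beside them were wild-type C57BL/6 MEF of a second array series, given lipopolysaccharide (LPS) for 0, 1, 3 and 8 h, and wild-type C57BL/6 bone marrow-derived macrophages (BMDM) given IFNb for 8 h, with the 0 h array of the macrophage LPS series as their baseline. The remaining MEF arrays, titled p50KO and given LPS for the same times, were not compared here. They entered the joint normalization of the 10 MEF arrays and the choice of the brightest probe of a gene.

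IFNb is a type I interferon, a secreted protein through which infected cells warn their neighbours. It binds a receptor of 2 chains, Ifnar1 and Ifnar2, whose kinases Jak1 and Tyk2 phosphorylate Stat2, a transcription factor. With Irf9 it takes part in a complex that enters the nucleus and binds interferon-stimulated response elements in the promoters of its target genes. The targets include sensors of foreign nucleic acid, proteins that block steps of viral replication, GTPases that attack vacuoles of intracellular pathogens, and the machinery that shows peptides to T cells. Fibroblasts carry the receptor and are a classical cell type in which this response was defined.

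Intensities were background corrected, quantile normalized over the 10 MEF arrays and set on a log2 scale, and a level below is such a normalized log2 intensity of 1 probe. A probe was called above background where its detection p-value against the negative control beads was under 0.01. Of 15967 genes with a probe, 7634 had one above background on at least 1 of the pair and are called measured. On the 8 h array 10038 probes (40.8%) were above background and on the 0 h array 10089 (41%). All 13 fibroblast markers with a probe were measured, including the collagen gene Col1a1 (level 13.16 at 8 h and 13.48 at 0 h), the intermediate filament gene Vim (14.74 and 14.72) and the receptor gene Pdgfra (12.15 and 11.72), and 0 of them differed 2-fold. Macrophage markers were mixed: 5 of 9 with a probe were measured, led by the lysozyme gene Lyz2 (13.21 at 8 h and 13.52 at 0 h) and Adgre1, which encodes F4/80 (9.13 and 9.38), while the leukocyte markers Ptprc, Itgam, Fcer1g and Aif1 were not above background on either array. The summed linear level of the 5 was 10321 at 8 h and 12756 at 0 h. None of the 5 was higher at 8 h. Of 7 lymphocyte markers 0 were above background, of 6 endothelial markers 1 (Emcn, 5.84 and 5.89) and of 7 epithelial markers 1 (Krt18, on the 0 h array alone). In RNA of a whole culture, more RNA per cell and more cells that make it cannot be told apart.

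After 8 h of IFNb, 384 of the 7634 measured genes (5.03%) had a level 2-fold or more above that at 0 h, and 88 (1.15%) one 2-fold or more below it. With median scaling in place of quantile normalization 451 genes were higher and 42 lower, and with the authors' normalized values 341 and 16. The size of the difference was also uneven: 138 genes (1.81%) were at least 4-fold higher, 66 (0.865%) at least 8-fold, 32 (0.419%) at least 16-fold and 16 (0.21%) at least 32-fold, against 2 genes (0.0262%) at least 4-fold lower. The median log2 difference of all measured genes was -0.12 (0.03 with median scaling), a shift that was not subtracted, and 81.0% of them lay within 1.5-fold of equality. The genes of 13 interferon-response lists made up 93 of the 384 higher genes (24.2%), 66 of the 138 at 4-fold (47.8%), 40 of the 66 at 8-fold (60.6%) and 27 of the 32 at 16-fold (84.4%). Those lists hold 183 genes, of which 158 had a probe and 121 were measured. Of the 121, 93 (76.9%) were higher and 0 lower at the 2-fold threshold, with a median log2 difference of 2.08. The 121 include 28 above background at 8 h alone, which could only come out higher. Where both arrays had to be above background, 66 of 92 were higher. The lists were chosen with earlier results of these data known.

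A gene whose probe was not above background at 0 h has only a bound there. Its fold is given as at least the 8 h level over the higher of its own 0 h level and the lowest 0 h level of any probe above background (5.58). Of the measured genes 266 (3.48%) were above background at 8 h alone and 315 (4.13%) at 0 h alone. Among the 266, the measured difference was at least 2-fold for 92, and the bound itself was at least 2-fold for 53 and at least 4-fold for 32. Counting such genes by their bound left 345 higher genes in place of 384, and 86 in place of 93 in the interferon lists. The median of the lists was 2.05 with those genes at their bound and 2.04 over the 92 members above background on both arrays.

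**Figure D1:**
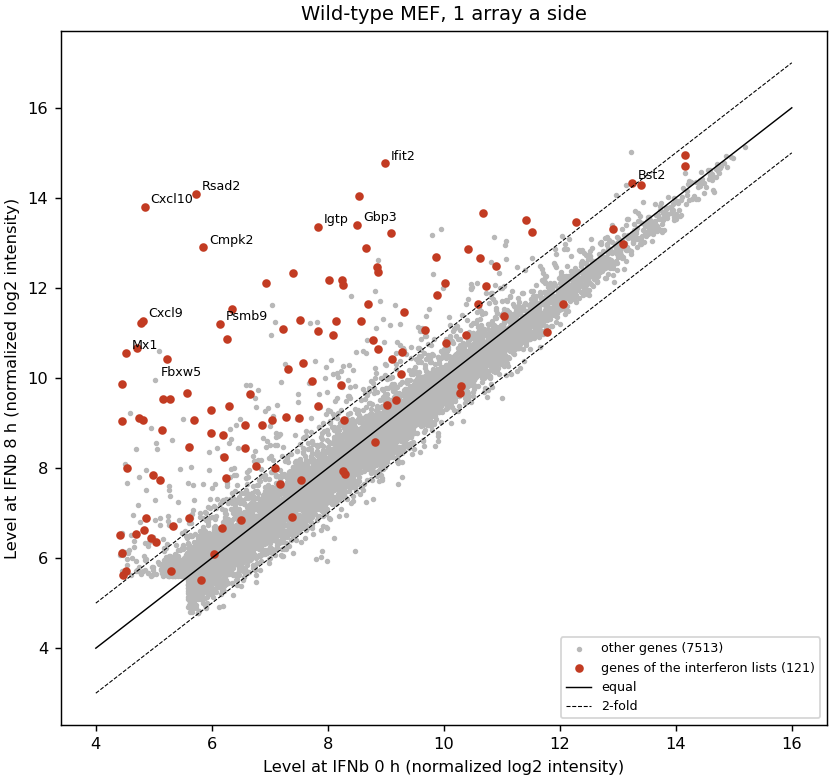
Levels of the 7634 measured genes on the IFNb 8 h array (vertical axis) and the IFNb 0 h array (horizontal axis), both as normalized log2 intensity; red points are the 121 genes of the interferon lists, grey points all others, the solid line is equality and the dashed lines 2-fold. The red points lie mostly above the upper dashed line, and those at the left edge were not above background at 0 h.

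Cxcl10 encodes a chemokine that draws activated T cells. Its level was 13.80 at 8 h and 4.85 at 0 h, where it was not above background, so it was at least 298-fold higher. Rsad2 encodes viperin, an enzyme that makes a chain-terminating nucleotide from CTP. It had a level of 14.09 at 8 h and 5.73 at 0 h, above background on both arrays (detection p-value 0.00852 at 0 h), a 330-fold difference. Its chromosomal neighbour Cmpk2, which encodes a nucleoside monophosphate kinase, had 12.91 at 8 h and 5.86 at 0 h, or 132.5-fold. On the 4 wild-type arrays of the LPS series the level of Rsad2 was 7.46, 7.64, 14.32 and 12.93 at 0, 1, 3 and 8 h, so the 8 h IFNb array lay near the LPS arrays of 3 and 8 h and far above both unstimulated arrays. Cxcl10 was not above background at 0 and 1 h of LPS and had levels of 11.74 and 11.96 at 3 and 8 h, both below its level with IFNb.

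Promoters of strongly higher genes are shown because the 2 short elements that interferon-activated factors bind can be looked for in them. Only genes with an interferon-stimulated response element core before the start are printed, so its presence in every window was fixed by that choice. Genes of similar rank without one, such as Cmpk2, Oasl1, Ifit2 and Psmb9, were passed over. Calhm6, which held one, is left out. Promoter sequences of 250 bases before to 50 after each gene's start were taken from RefSeq (GRCm38.p6), and both strands were searched for the core of the interferon-stimulated response element (ISRE), GAAANNGAA, and of the gamma-activated site (GAS), TTCNNNGAA. Capitals below mark the ISRE core, which reads TTCNNTTTC where it lies on the other strand. Each window runs 5′ to 3′ along the gene's own strand, around the core nearest before the start.
Cxcl10, chr5:92349054-92349139, minus strand: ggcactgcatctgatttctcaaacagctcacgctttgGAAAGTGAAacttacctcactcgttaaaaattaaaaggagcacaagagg
Rsad2, chr12:26456523-26456611, minus strand: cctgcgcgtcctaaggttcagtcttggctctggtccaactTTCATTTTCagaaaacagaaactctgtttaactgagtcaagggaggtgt
Cxcl9, chr5:92328206-92328294, minus strand: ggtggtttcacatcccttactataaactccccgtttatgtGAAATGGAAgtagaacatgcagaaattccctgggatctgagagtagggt
Tgtp1, chr11:48992275-48992363, minus strand: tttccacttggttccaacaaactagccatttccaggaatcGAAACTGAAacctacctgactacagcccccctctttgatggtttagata
Igtp, chr11:58199482-58199555, plus strand: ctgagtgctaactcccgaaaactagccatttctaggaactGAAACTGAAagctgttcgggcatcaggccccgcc
Ifit3, chr19:34583387-34583475, plus strand: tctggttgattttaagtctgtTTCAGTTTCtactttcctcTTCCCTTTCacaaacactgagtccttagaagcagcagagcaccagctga
Phf11a, chr14:59297523-59297591, minus strand: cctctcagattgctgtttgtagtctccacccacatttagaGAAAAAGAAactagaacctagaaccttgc
Gbp3, chr3:142559966-142560043, plus strand: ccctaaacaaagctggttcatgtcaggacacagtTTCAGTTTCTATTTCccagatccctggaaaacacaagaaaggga
Gbp5, chr3:142496730-142496818, plus strand: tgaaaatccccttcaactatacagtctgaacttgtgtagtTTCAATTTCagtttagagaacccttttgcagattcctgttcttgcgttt
The core began 213 bases before the start of Cxcl10 and 34 bases before that of Igtp. The windows of Tgtp1 and Igtp, both GTPase genes of chromosome 11, shared a run of 14 bases, aaactagccatttc, upstream of the same core letters. In Gbp3 a pair of cores on the same strand overlapped.

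Among the 32 genes at least 16-fold higher, 27 had a promoter in the table and 15 of these (55.6%) held an ISRE core. The share was 13% (3 of 23) at 8- to 16-fold, 35.1% (20 of 57) at 4- to 8-fold and 15% (28 of 187) at 2- to 4-fold. It was 6.58% (5 of 76) among genes at least 2-fold lower, 8.04% (230 of 2859) among genes within 1.2-fold of equality and 9.76% among all 27025 genes of the table. The share did not fall evenly with the fold, and the 8- to 16-fold class held few genes. The GAS core was in the promoters of 29.6% (8 of 27) of genes at 16-fold or more and in 13%, 10.5% and 10.2% of the next 3 classes, against 7.45% of genes within 1.2-fold. Of the 58 ISRE cores in promoters of genes at least 4-fold higher, 38 (65.5%) began within 150 bases before the start. The median position over all 58 was 76.5 bases before the start. Positions in the promoters of other genes were not counted, so no clustering is read from this share. Of 93 ISRE cores in promoters of the higher genes, 4 overlapped a GAS core. Several of the leading genes, among them Cmpk2, Oasl1, Psmb9, Ifi47 and Irf7, held no ISRE core of these letters in this window, and 5 more, Mx1, Mx2, Parp14, Plscr2 and Oas1b, had no promoter entry used here.

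**Figure D2:**
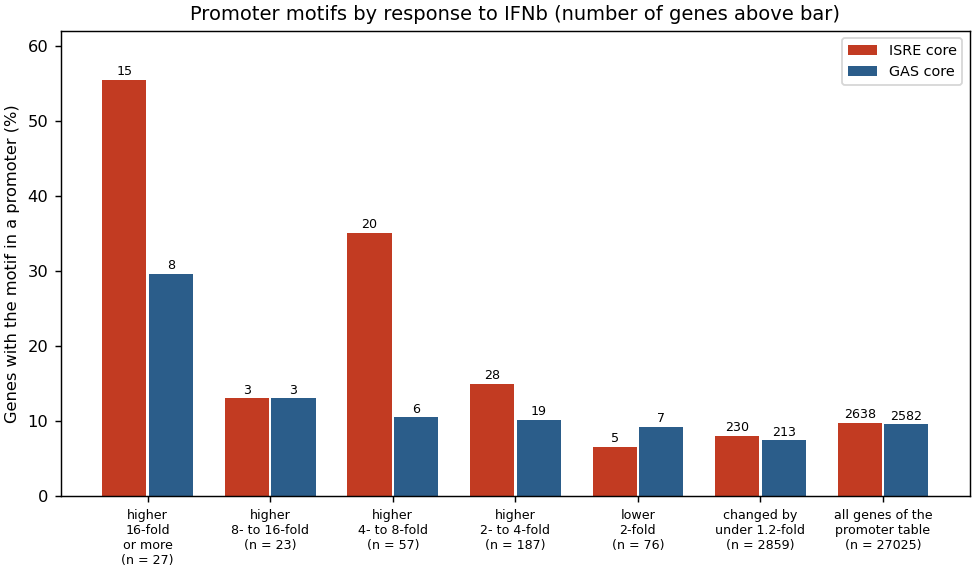
Share of genes with an ISRE core (red) or a GAS core (blue) in a RefSeq promoter, as a percentage from 0, by response to IFNb from the largest difference on the left to all genes of the promoter table on the right; the number over a bar is the count of genes with the motif. The red bar is highest at 55.6% for genes at least 16-fold higher and is 13% in the next class and 35.1% in the one after it.

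In the signalling chain itself the differences were moderate. Of 9 measured components 4 were at least 2-fold higher: the transcription factor gene Stat2 (level 10.32 at 8 h and 7.58 at 0 h, 6.70-fold), the kinase genes Jak1 (9.37 and 7.84) and Jak2 (10.42 and 9.10), and Irf9 (10.58 and 9.28, 2.45-fold), whose product joins Stat2 in the nuclear complex. The receptor chain gene Ifnar2 (7.64 and 7.17) and the kinase gene Tyk2 (6.10 and 6.03) were within 2-fold, and the probe of Ifnar1 was not above background on either array. Irf9 had a level of 10.27 on the 0 h array of the LPS series, close to its IFNb 8 h level, and was not 2-fold higher against that array (log2 difference 0.30). The Jak1 probe was not above background on any wild-type array of the LPS series.

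Interferon regulatory factors are the second tier of the response. Of 6 measured members 3 were at least 4-fold higher and no other reached 2-fold. Irf7, which drives the interferon-alpha genes, had a level of 10.86 at 8 h and 6.25 at 0 h, a 24.3-fold difference. Irf1 had 10.96 and 8.08 (7.33-fold, with log2 differences of 2.29 to 3.10 over its 4 probes) and Irf5 had 8.48 and 5.61 (7.28-fold). Irf3, which is activated by phosphorylation, had 9.82 and 10.30. None of the 8 type I interferon genes with a probe, Ifnb1 among them, was above background on either array. Of 8 measured genes that damp the receptor 2 were at least 2-fold higher. Socs1, an inhibitor of the Jak kinases, had a level of 8.96 at 8 h and 6.86 at 0 h (4.28-fold). Socs2 had 8.05 and 6.76, but its level on the LPS-series 0 h array was 9.71, above both.

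Of 14 measured sensors of viral nucleic acid and their adaptors 10 had a difference past 2-fold, 9 when genes not above background at 0 h count by their bound, with a median log2 difference of 1.55. The cytosolic RNA sensor genes Ddx58 (RIG-I) and Ifih1 (MDA5) had levels of 11.27 and 9.11 at 8 h. At 0 h Ddx58 had 8.57, a 6.46-fold difference, and Ifih1 was not above background at 4.74, so it was at least 11.6-fold higher. Tlr3, the endosomal receptor of double-stranded RNA, had 8.00 at 8 h and 4.54 at 0 h, not above background, at least 5.34-fold. The RNA-activated kinase gene Eif2ak2 (PKR) was 3.9-fold higher and the RNA-editing enzyme gene Adar 4.11-fold. The adaptor gene Mavs was within 2-fold (7.87 and 8.30), as were Sting1 (8.00 and 7.09), Tbk1 (10.96 and 10.38) and Ikbke (6.68 and 6.18). Dhx58 (LGP2) was 5.72 at 8 h, barely above background, and its bound was 1.10-fold.

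Antiviral effectors came next in role. Of 7 measured oligoadenylate synthetase genes, whose products make the messenger that activates RNase L, 6 were at least 2-fold higher by their bound or on both arrays. The median log2 difference was 4.22, and 5 of the 7 count as measured through the 8 h array alone, where they had to be higher. Oasl1, a relative without synthetase activity, had a level of 11.22 at 8 h and 4.77 at 0 h, not above background, at least 49.9-fold. That bound holds for the brighter of its 2 probes, whose log2 difference was 6.45, while the other probe had 4.15. Oasl2 was at least 15.4-fold, Oas1b at least 11.3-fold and Oas2 at least 9.64-fold higher, and Oas1g was 18.6-fold higher and above background on both arrays. Its 4 probes spanned log2 differences of 1.60 to 4.66, and since these paralogs are alike in sequence the share of cross-hybridisation was not tested. Oas3 was 5.62 at 8 h, with a bound of 1.03-fold.

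Ifit proteins bind foreign RNA and hold back translation. Ifit2 had a level of 14.76 at 8 h and 8.99 at 0 h, a 54.9-fold difference, and Ifit3 had 14.05 and 8.54, or 45.6-fold, with 2 probes that differed by little (5.51 and 5.53 on the log2 scale). The probe for Ifit1 was not above background on either array. Of the enzymes that attach the ubiquitin-like Isg15, the E1 gene Uba7 was 4.14-fold and the E2 gene Ube2l6 7.34-fold higher; Isg15 itself and Usp18 were not analysed here. Mx1 and Mx2, dynamin-like GTPases that trap viral nucleocapsids, had levels of 10.56 and 10.42 at 8 h and 4.52 and 5.23 at 0 h, where neither was above background, at least 31.5-fold and 28.6-fold. Samhd1, which depletes nucleotides, was 18.0-fold higher, the exonuclease gene Isg20 7.86-fold and Zc3hav1, which binds viral RNA, 4.59-fold. Most membrane restriction factors differed by less. Bst2, or tetherin, was 14.33 at 8 h and 13.25 at 0 h (2.12-fold), and Ifitm1, Ifitm2 and Ifitm3, which block viral entry, were within 2-fold at 0 h levels of 12.92 to 14.16.

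**Figure D3:**
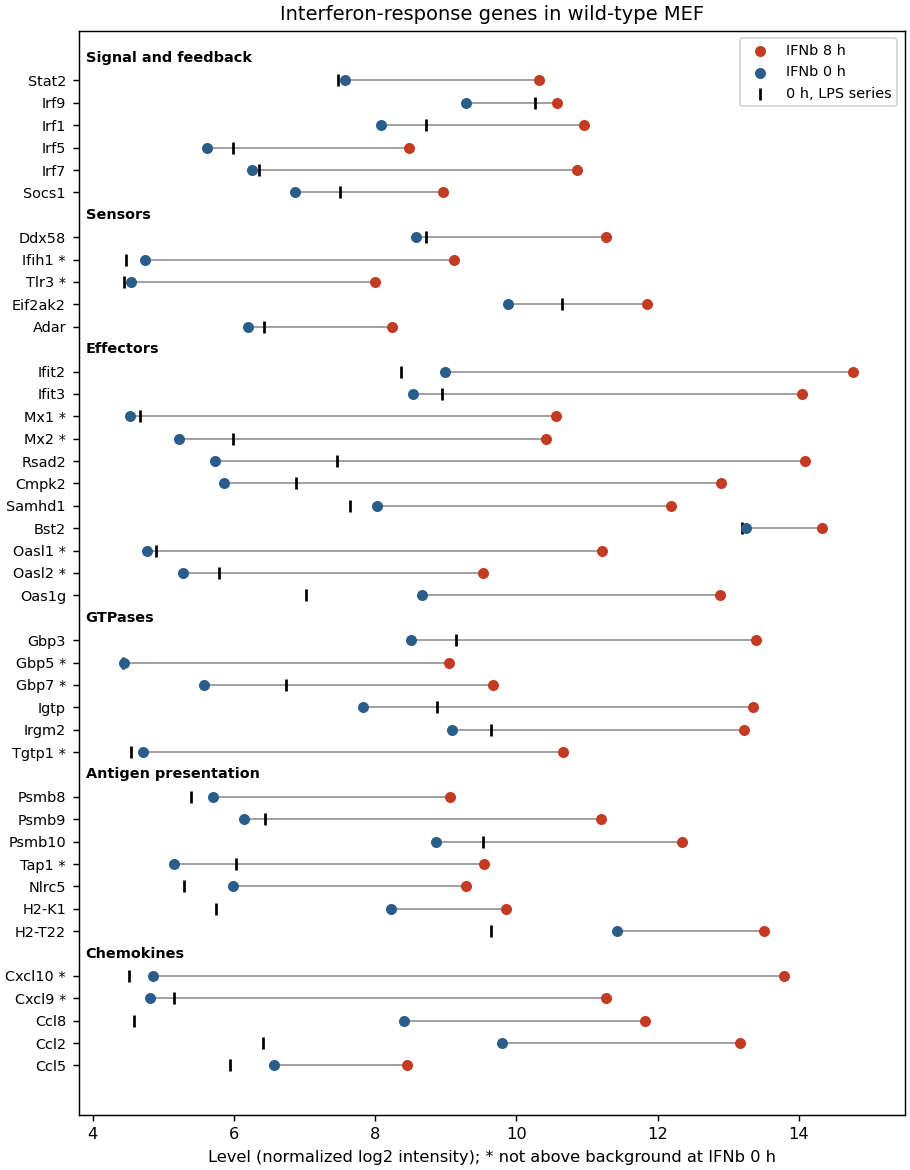
Levels (normalized log2 intensity, horizontal axis) of interferon-response genes by role on the IFNb 8 h array (red), the IFNb 0 h array (blue) and the 0 h array of the LPS series (black bar), 1 array each; an asterisk marks a probe not above background at IFNb 0 h. The red point lies right of the blue one for every gene drawn, and the black bar lies near the blue point for most genes. It lies well to the left of the blue point for Ccl2, Ccl8, H2-K1, H2-T22 and Oas1g. It lies to the right for others, among them Rsad2, Gbp7, Igtp and Cmpk2.

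GTPases that act on intracellular pathogens were measured in part through the 8 h array alone: 2 of 3 guanylate-binding proteins and 2 of 6 immunity-related GTPases. Of the guanylate-binding proteins, Gbp3 had a level of 13.40 at 8 h and 8.51 at 0 h (29.7-fold), while Gbp5 and Gbp7 were above background at 8 h alone, at least 11.1-fold and 17-fold; 5 further members with a probe were not above background on either array. Of 6 measured immunity-related GTPases 5 were at least 2-fold higher by their bound or on both arrays, with a median log2 difference of 4.53. Igtp had 13.35 at 8 h and 7.83 at 0 h (45.8-fold), Ifi47 had 12.32 and 7.40 (30.3-fold) and Irgm2 had 13.22 and 9.08 (17.6-fold). Tgtp1 was 10.66 at 8 h and not above background at 0 h (4.70), at least 33.8-fold. Iigp1 was 6.51 at 8 h and not above background at 0 h or on any wild-type LPS array, with a bound of 1.90-fold.

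The wider set of poly-ADP-ribosyltransferases, TRIM, Schlafen and other interferon-stimulated genes had a difference past 2-fold in 24 of 27 measured members (median log2 difference 2.54), and in 21 counting by the bound, since Trim21, Slfn5 and Nmi had bounds of 1.95-fold, 1.81-fold and 1.45-fold. Parp14, an ADP-ribosyltransferase, had a level of 11.53 at 8 h and 6.36 at 0 h (36.1-fold). The zinc-finger genes Phf11d (12.12 and 6.94, 36.2-fold) and Phf11a (9.88 and 4.46, at least 19.6-fold) were close to it, followed by Parp12 (15.2-fold), Tor3a (14.4-fold), the ubiquitin ligase gene Dtx3l (13.9-fold), Slfn2 (13.6-fold) and Trim30a (12.3-fold). Pml, which organises nuclear bodies, was 4.09-fold higher and its partner gene Daxx 8.62-fold. The exceptions were Ifi27 (11.02 at 8 h and 11.79 at 0 h), the lysosomal reductase gene Ifi30 (9.66 and 10.28) and Xaf1 (5.52, not above background, and 5.81). For Pml the 3 probes spanned log2 differences of 0.45 to 2.03.

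In antigen presentation, 11 of 13 measured genes of MHC class I and peptide loading were at least 2-fold higher, with a median log2 difference of 2.04. The heavy chain genes H2-T22 (13.51 at 8 h and 11.42 at 0 h, 4.26-fold), H2-T23 (12.10 and 10.02, 4.23-fold) and H2-K1 (9.85 and 8.22, 3.09-fold) lay in a narrow range of differences. On the LPS-series 0 h array these heavy chain genes lay lower than at IFNb 0 h: H2-T22 at 9.64, H2-T23 at 6.67 and H2-K1 at 5.75, not above background. Of the peptide loading genes Tap2 was also lower there, while Tap1, Tapbp and Tapbpl were higher. Nlrc5, the transactivator of class I genes, had 9.29 and 5.98 (9.90-fold). The peptide transporter gene Tap1 was 9.54 at 8 h and not above background at 0 h (at least 15.6-fold), and its partner Tap2 was 4.49-fold higher. The light chain gene B2m, at 14.72 and 14.17, was within 2-fold. The inducible proteasome subunit genes Psmb9 (11.20 and 6.15, 33.2-fold), Psmb10 (12.34 and 8.87, 11.1-fold) and Psmb8 (9.06 and 5.70, 10.3-fold) were all higher. Of the constitutive proteasome 0 of 14 measured subunits differed 2-fold (median -0.17, range -0.39 to 0.62). That is near the share over all measured genes, 5.03% higher and 1.15% lower. The 14 include Psmb5, Psmb6 and Psmb7, whose catalytic places the inducible subunits take. Of the MHC class II list, 7 of 9 genes with a probe, Ciita among them, were not above background, and H2-DMa and H2-DMb1 both had a log2 difference of 0.06.

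Chemokines split. All 3 measured interferon-type chemokine genes were higher. Cxcl9 had a level of 11.27 at 8 h and 4.82 at 0 h, not above background, at least 51.6-fold, and Ccl5 had 8.45 and 6.57, a 3.68-fold difference. Cxcl11 was not above background. Of 10 other chemokine genes 4 were at least 2-fold higher and 1 lower. The monocyte chemoattractant gene Ccl8 had 11.83 at 8 h and 8.40 at 0 h (10.7-fold). Its level on the LPS-series 0 h array was 4.58, not above background, so the IFNb 0 h cells already lay far above those cells. The other higher members, Ccl2 (13.17 and 9.80), Ccl12 (12.30 and 9.81) and Ccl7 (15.01 and 13.23), are neighbours of Ccl8 and shared that pattern, with LPS-series 0 h levels of 6.41, 6.44 and 9.90. The neutrophil chemokine gene Cxcl1 was lower, at 8.60 at 8 h and 9.65 at 0 h, a log2 difference of -1.05. It was 8.43 on the LPS-series 0 h array, and against that array the log2 difference was 0.17.

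**Figure D4:**
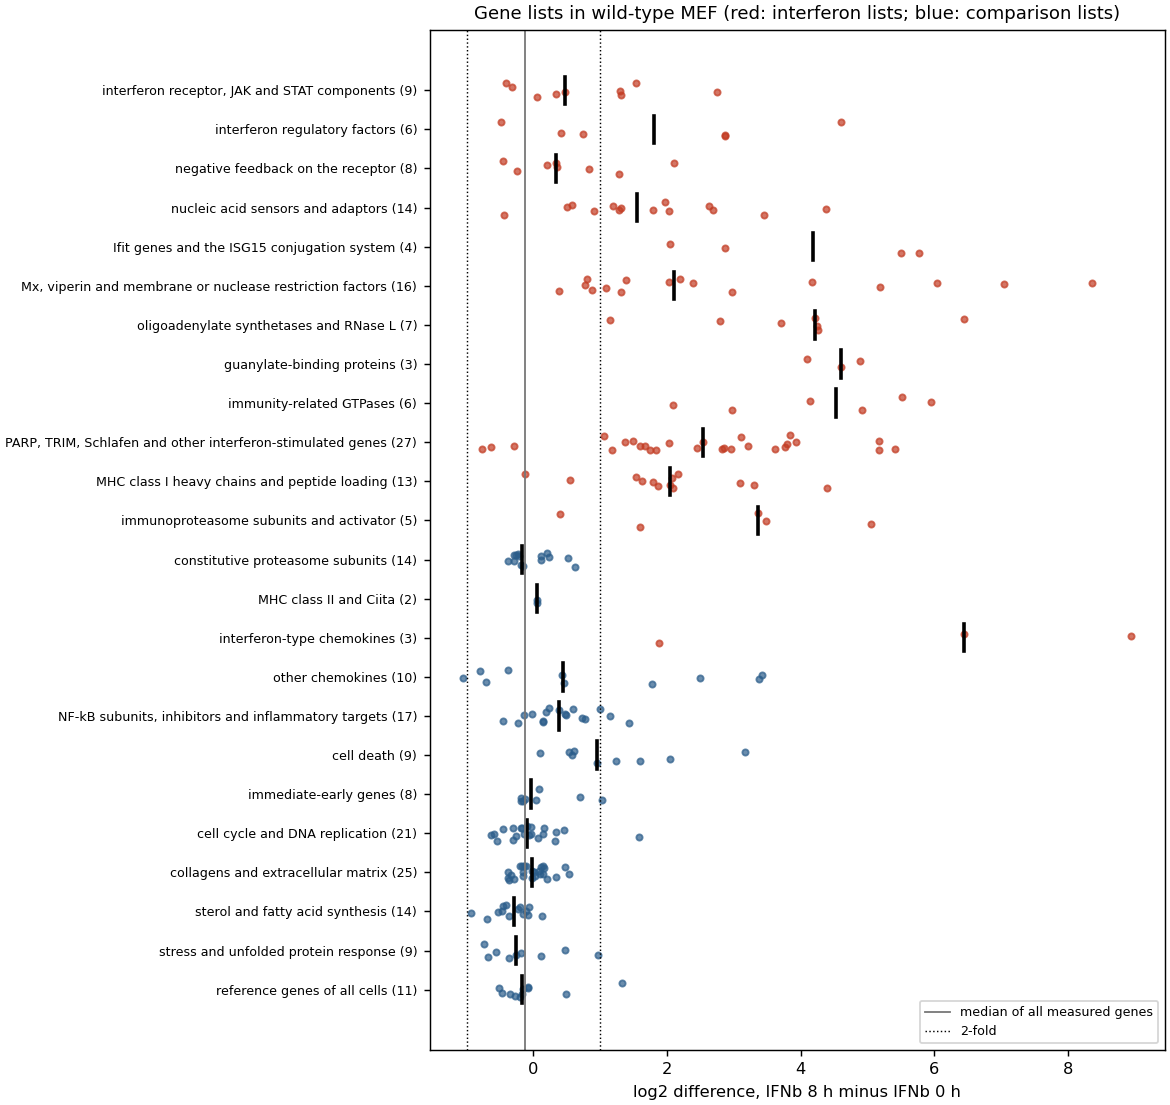
log2 difference, IFNb 8 h minus IFNb 0 h, of each measured gene by list (the number of measured genes in parentheses), with the list median as a black bar; interferon lists are red and comparison lists blue, the grey line is the median of all measured genes (-0.12) and dotted lines mark 2-fold. Most red medians lie right of the dotted line, while the medians of all blue lists lie between -0.29 and 0.96.

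Other programmes of the cell lay mostly within 2-fold, as did most genes. Over all measured genes 5.03% were at least 2-fold higher and 1.15% lower. Lists with 0 or 1 member past 2-fold lie near that share, so nothing particular to them is read. Collagens and other matrix genes had 0 of 25 measured members past 2-fold and a median log2 difference of -0.02. Of 21 measured cell cycle and replication genes 1 was past 2-fold: Mcm6, a subunit of the replicative helicase, was 11.14 at 8 h and 9.56 at 0 h, with 3 probes between 1.59 and 1.84 on the log2 scale, while Mcm2, Mcm4, Mcm5 and Mcm7 of the same complex lay between -0.45 and -0.19. Sterol and fatty acid synthesis had 0 of 14 past 2-fold (median -0.29, lowest Insig1 at -0.94) and the stress and unfolded protein response 0 of 9 (median -0.26, highest Ddit3 at 0.97). Of 17 measured NF-kB and inflammatory genes 3 were at least 2-fold higher, led by Il6 (8.16 at 8 h and 6.73 at 0 h); the list's median was 0.39. Among 8 immediate-early genes 1, the mRNA decay factor gene Zfp36 (log2 difference 1.03), was past 2-fold. Cell death genes had 4 of 9 past 2-fold, or 3 counting by the bound, with Casp4, the caspase that senses cytosolic lipopolysaccharide, at 9.84 at 8 h and 6.66 at 0 h (9.03-fold, both probes 3.18). Among 11 measured reference genes of all cells the median was -0.17 and 1, Ywhaz (6.97 and 5.65), was past 2-fold.

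The higher genes outside the lists numbered 291. Those named here include Hap1, which encodes huntingtin-associated protein, at 10.61 at 8 h and not above background at 0 h (5.09, at least 32.6-fold), Plscr2, a phospholipid scramblase gene (11.63 and 7.04, 24.1-fold), Cd274, which encodes the checkpoint ligand PD-L1 (11.25 and 7.09, 17.8-fold), and AA467197 (10.95 and 7.02, 15.2-fold). Calhm6, which was chosen after its values were seen, was 9.21 at 8 h and not above background at 0 h (4.59), at least 12.4-fold. Fbxw5, an F-box protein gene, was 9.96 at 8 h and 5.02 at 0 h, not above background, at least 20.8-fold. It was 9.0 on the 0 h array of the LPS series, and 5.27, 6.19 and 6.46 at 1, 3 and 8 h of LPS. The size of its difference thus depends on which unstimulated array is the baseline, and why they differ was not tested.

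Lower genes were fewer, and the 5 with the largest differences had 8 h levels between 5.94 and 6.17. The first was Sbk1, a kinase gene, at 6.16 at 8 h and 8.47 at 0 h (log2 difference -2.31). Zcchc18 (6.02 and 7.88), the hormone gene Fgf21 (5.99 and 7.80), Gdf1 (6.17 and 7.90) and Faap100, of the Fanconi anaemia core complex (6.44 and 8.11), were also among the 15 largest downward differences. Genes with higher levels among those 15 were the iron exporter gene Slc40a1 (7.65 and 9.21), Ppp1r3c, a regulator of glycogen synthesis (7.80 and 9.28), the thymidylate kinase gene Dtymk (7.31 and 8.78), Ss18l2 (log2 difference -1.44) and the endothelin receptor gene Ednrb (7.25 and 8.67). Against the LPS-series 0 h array Fgf21 (log2 difference -0.80), Ppp1r3c (-0.99) and Dtymk (-0.99) missed 2-fold. For Angptl6 one probe had a log2 difference of -2.04 and the other 1.65. Among genes above background at 0 h alone, Rab27a, a GTPase gene of vesicle transport, was at least 2.24-fold lower (5.46 at 8 h and 6.76 at 0 h).

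The difference between the 2 unstimulated arrays sets a scale for these values, though they belong to different array series, and culture and array series cannot be told apart. Between the 0 h array of the IFNb series and that of the LPS series, 903 of 7590 measured genes (11.9%) lay higher by 2-fold or more and 559 (7.36%) lower. Over the 7634 genes measured in the IFNb pair, the SD of that difference was 0.88, against an SD of 0.67 for IFNb 8 h minus 0 h. Of the 384 genes higher with IFNb, 314 were also at least 2-fold above the LPS-series 0 h array and 259 lay above all 4 wild-type arrays of that series. The 0 h level of 106 of the 384 differed 2-fold between the unstimulated arrays, in 66 upward and in 40 downward in the IFNb series. In the interferon lists 91 of 120 genes were at least 2-fold higher against the LPS-series 0 h array, where the median log2 difference was 2.58. Of the 88 lower genes, 69 were also at least 2-fold lower against that array. Over all genes measured with that baseline, 1205 of 7634 were at least 2-fold higher and 1055 lower. The share of all genes above the 4 LPS-series arrays was not counted. The IFNb 8 h array is part of both comparisons, so they are not independent.

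Where a gene had several probes above background they gave similar answers for most genes. The median gap between the highest and lowest log2 difference over 1387 such genes was 0.23, and the 95th percentile was 0.77. Of 77 higher genes with several probes, 55 had all of them at least 2-fold higher and 0 had a probe that was not higher.

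LPS drives interferon genes too, through interferon that the cells release and through factors of its own. In MEF, LPS at 8 h gave 556 genes at least 2-fold higher (7.98%) and 420 lower (6.03%) of 6968 measured, against its own 0 h array, so the contrasts share no array. Over the 6698 genes measured in both, 320 were higher with IFNb and 473 with LPS, and 208 were higher in both, which is 65.0% of the IFNb list and 44.0% of the LPS list. Of the lower genes 23 were shared, 27.7% of 83 with IFNb and 6.15% of 374 with LPS. Among 108 genes of the interferon lists with both values, 82 were at least 2-fold higher with IFNb and 88 with LPS, at medians of 2.13 and 2.50, and the IFNb difference was the larger one in 57, or in 40 of the 80 that were above background on all 4 arrays. Rsad2 differed by 8.37 with IFNb and 5.46 with LPS, and Cmpk2 by 7.05 and 4.13. Part of that gap lay in the 0 h levels, 5.73 in the IFNb series and 7.46 in the LPS series for Rsad2, and 5.86 and 6.88 for Cmpk2. Against the LPS-series 0 h array the IFNb differences were 6.63 and 6.02, smaller but still the larger ones. Daxx (3.11 with IFNb and 1.65 with LPS) had the same order. Ccl5 had the opposite one, at 3.68-fold with IFNb and at least 247-fold with LPS, since it was not above background at 0 h of LPS. Cxcl9 was not above background on either 0 h array, so it has only bounds, at least 51.6-fold with IFNb and at least 314-fold with LPS, which set no order.

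Of the 93 higher interferon genes, 9 were above background on the IFNb 8 h array and on none of the IFNb 0 h and 4 wild-type LPS arrays. That was 9.68% of them, and the same held for 41 of all 384 higher genes (10.7%), so nothing particular to the interferon lists is read from it. The 9 were Dhx58, Ifi205, Ifih1, Iigp1, Nmi, Oas3, Slfn5, Tlr3 and Trim21. Ifih1 had the highest level among them (9.11) and levels of 4.47, 4.48, 4.55 and 4.64 at 0, 1, 3 and 8 h of LPS. On the LPS-series arrays 8266 to 8959 probes were above background, fewer than on the IFNb pair, and the part of that gap in these absences was not tested.

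Genes of the NF-kB and inflammatory list lay apart between the stimuli: 3 of 17 measured were at least 2-fold higher with IFNb (median 0.39), and 16 of 16 with LPS (median 2.96). The 16 were not counted by their bound. They include Il6, Saa3 and Tnfaip3, measured there through the 8 h array alone, where they could only come out higher. Il6 had 0 h levels of 6.73 in the IFNb series and 4.58 in the LPS series. Among genes chosen after their values were seen, the acute-phase gene Saa3 was 1.11-fold higher with IFNb and at least 376-fold with LPS. The NF-kB inhibitor gene Tnfaip3 was 1.66-fold higher with IFNb and at least 30.4-fold with LPS. Neither was above background at 0 h of LPS. The collagenase gene Mmp13 had log2 differences of 0.54 with IFNb and 5.96 with LPS, from unlike 0 h levels of 11.94 and 7.49. Its 8 h levels were 12.48 with IFNb and 13.45 with LPS. Against the LPS-series 0 h array its level with IFNb was higher by 4.98, so no order of the stimuli is read for Mmp13. The difference between the stimuli was not tested, since each rests on 1 array a side.

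**Figure D5:**
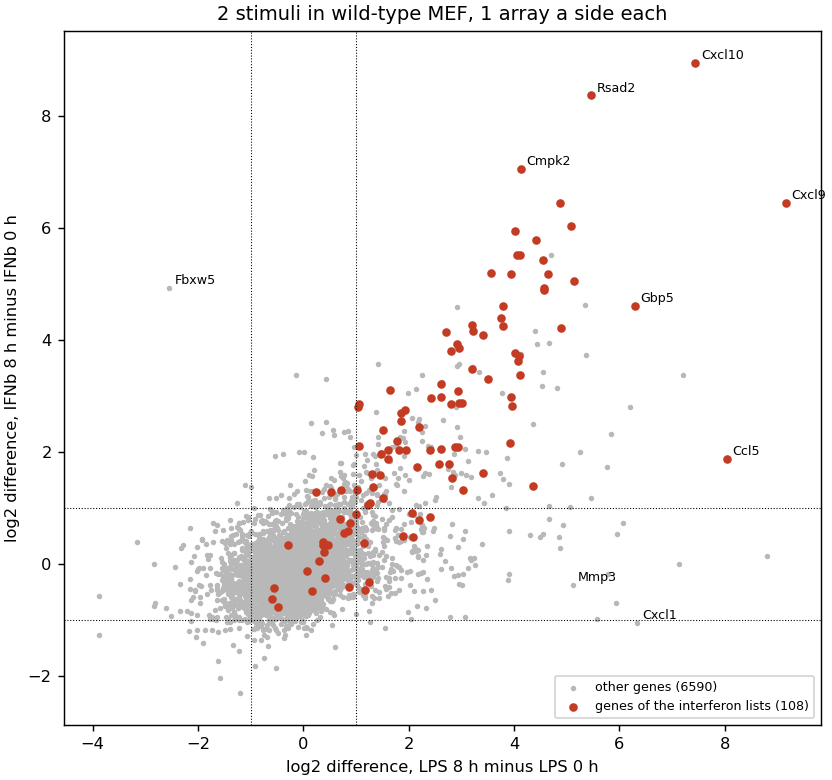
log2 difference of each gene with IFNb for 8 h (vertical axis) and with LPS for 8 h (horizontal axis), each against the 0 h array of its own series in wild-type MEF; red points are the 108 genes of the interferon lists with both values, grey points all others, and dotted lines mark 2-fold. Red points run along a rising band, Rsad2 and Cmpk2 stand high in it, and Ccl5, Mmp3 and Cxcl1 lie far right at small or negative values with IFNb. Genes not above background at 0 h are drawn at their measured difference.

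In macrophages given IFNb for 8 h, 122 of 8260 measured genes were at least 2-fold higher (1.48%) and 34 lower (0.412%) than on the 0 h array of the macrophage LPS series. Over 5964 genes measured in both cell types, 277 were higher in MEF and 95 in BMDM, and 80 in both, which is 28.9% of the MEF list and 84.2% of the BMDM list. Of 105 genes of the interferon lists with both values, 80 were at least 2-fold higher in MEF and 56 in BMDM, with medians of 2.05 and 1.11, and the MEF difference was the larger one in 85, or in 65 of the 81 that were above background on all 4 arrays. Irf7 was close in both (4.60 in MEF and 4.38 in BMDM), as was Gbp3 (4.89 and 4.4). Rsad2 (8.37 in MEF and 3.12 in BMDM) and Cmpk2 (7.05 and 2.61) differed more in MEF. All 4 of these genes were above background on each array used. Cxcl10 was not above background at 0 h in either cell type, so its differences have no order. Cell type, array series and probe set vary together here, and their parts cannot be told apart.

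Some of the higher genes lay next to each other on the chromosomes. In the gene order of the RefSeq annotation (GRCm38.p6), taken over the measured genes, 108 of 378 placed higher genes (28.6%) had another higher gene as a neighbour, against 612 of 7235 other genes (8.46%). There were 45 runs of at least 2 higher genes and 12 of at least 3. The longest held 5 chemokine genes of chromosome 11, Ccl2, Ccl7, Ccl11, Ccl12 and Ccl8. Runs of 4 were Oas2, Oas3, Oas1c and Oas1g on chromosome 5, Psmb9, Tap1, Psmb8 and Tap2 on chromosome 17, Trim34a, Trim12a, Trim30a and Trim30d on chromosome 7, and Apol7a, Apol9a, Apol10b and Apol9b on chromosome 15. Parp14, Dtx3l and Parp9 formed a run of 3 on chromosome 16, and Rsad2 and Cmpk2 a pair on chromosome 12. Most of these are families of similar genes, so neighbours are not independent, and sharing of probe signal was not tested.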

How the data were processed

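The authors deposited bead intensity per probe without normalization and a detection p-value per probe against negative controls, per the file headers; BeadStudio made them, per the submitters' processing notes. Normalized intensities that the authors also deposited served as an alternative. Of 24613 unnormalized MEF probes, 24599 were used; 14 stood in that file alone. Intensities were corrected with limma's nec (R 4.3.3, limma 3.58.1, offset 16), quantile normalized over 10 MEF arrays and set to log2. The platform annotation gave 1 symbol to 20974 probes, several to 1 and none to 3624; 20959 symbols matched the GRCm38.p6 table. The brightest probe above background stood for a gene. Every group had 1 array, so values are log2 differences and folds with no test; the limit to precision is that number of arrays. Members and gene lists were chosen with earlier results of these data known. Named genes were interferon-list genes past 2-fold, the largest differences among all genes, and extremes of comparison lists. Steps were tested on simulated data. Alternatives were offset 50, no background correction, median scaling, the pair normalized alone, the authors' values (floor 16), a detection p of 0.05, other filters, probe means and other baselines.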

Additional observations from a re-analysis of the deposited data

Results flagged for a closer look

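Probes without a gene name carried signal that the comparisons above do not use: 80 of 1156 such probes above background (6.92%) were at least 2-fold higher at 8 h, the largest by 5.67 on the log2 scale, and 8 were at least 2-fold lower. They stay unnamed here.

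Of 6698 genes measured with both stimuli in MEF, 6 passed 2-fold in opposite directions with IFNb and with LPS. Over the same genes 320 (4.78%) were higher and 83 (1.24%) lower with IFNb, and 473 (7.06%) higher and 374 (5.58%) lower with LPS. Nothing is read from the number 6, and the difference between the stimuli was not tested. Cxcl1 differed by -1.05 with IFNb and 6.34 with LPS, the endothelin gene Edn1 by -1.14 and 1.55, and Whrn by -1.04 and 1.26. Fbxw5 differed by 4.93 with IFNb and -2.55 with LPS, Lpxn by 1.42 and -1.12, and the Toll-like receptor gene Tlr13 by 1.08 and -1.26. For Fbxw5 the level was 5.02 on the IFNb 0 h array, not above background, and 9.0 on the LPS 0 h array. With the LPS-series 0 h array as baseline for the IFNb 8 h array, Cxcl1 (log2 difference 0.17), Edn1 (-0.17), Fbxw5 (0.95) and Lpxn (0.68) missed 2-fold, while Whrn (-1.19) and Tlr13 (1.15) passed it. No gene passed 2-fold in opposite directions with IFNb in MEF and in BMDM, of 5964 measured in both. Of these, 277 (4.64%) were higher and 59 (0.989%) lower in MEF, and 95 (1.59%) higher and 19 (0.319%) lower in BMDM. With so few genes past 2-fold, no agreement between the cell types is read from it.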

How the results depend on the processing

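No paired analysis was possible because every group has 1 array. The interferon lists kept their direction under all 11 alternatives, with medians from 1.84 without background correction to 2.58 with the LPS-series 0 h array as baseline and 2.44 with the mean of both 0 h arrays. The number of higher genes was 289 to 451 except under those baselines, where it was 1205 and 696. The number of lower genes was less stable: 39 with offset 50, 31 without background correction, 42 with median scaling, 16 with the authors' values, and 1055 and 414 under the other baselines. With the LPS-series 0 h array 942 genes were above background at 8 h alone. Of the genes past 2-fold, the higher share was 81.4%, and 91.5% with median scaling, 95.5% with the authors' values, 53.3% with the LPS-series baseline and 62.7% with both baselines. Median scaling set the median of all genes at 0.03, against -0.12. Of 123 named genes past 2-fold, 91 to 123 stayed past it, and 31 had no value when both arrays had to be above background. Signs turned for Socs2 (-1.67 and -0.19 under the other baselines), Ercc2 (0.41 when both arrays were required, on another probe) and Cxcl1 (0.17 with the LPS-series baseline). The cause was not tested for the counts. Dim genes are limited by the background, and 1 array a side allows no error.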

Other observations

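The following genes lie outside the lists and were chosen one by one after their values were seen, so they stand for no group. Il7, a growth factor of lymphocytes, was 9.08 at 8 h and not above background at 0 h (at least 11.3-fold). Il15 was 8.96 at 8 h and 6.42 at 0 h, its receptor chain gene Il15ra had a log2 difference of 1.62, Il33 was 8.65 and 6.34, and Il18bp, a decoy of interleukin 18, was at least 4.63-fold higher. With LPS the log2 difference of Il33 was 0.58 and that of Il7 1.42.

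Cfb, of the alternative pathway, was 8.42 at 8 h and not above background at 0 h (at least 7.16-fold), its neighbour C2 was 10.57 and 8.49, and Serping1, the C1 inhibitor gene, had a log2 difference of 2.02. Serping1 had a level of 6.79 on the LPS-series 0 h array. Others were Trex1, a DNA exonuclease gene (11.22 and 7.70), Samd9l (13.32 and 9.95), the xanthine dehydrogenase gene Xdh (11.24 and 7.82), the apolipoprotein D gene Apod (12.61 and 8.87), and Gsdmd, the pore protein of pyroptosis (log2 difference 1.62).

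Some higher genes had a 0 h level in the IFNb series below that of the LPS series. Car12, a carbonic anhydrase gene, was 8.43 at 8 h and 5.06 at 0 h, against 9.09 on the LPS-series 0 h array, and Angpt1 was 7.98 and 5.46, against 8.74. For both, the 8 h level lay under an unstimulated array.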
